A study of Mus musculus with 4 samples.

Results

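RNA that came down with phosphorylated ribosomes was measured in the hypothalamus of mice given concentrated salt or vehicle. The 4 arrays described here are the immunoprecipitation (IP) arrays of salt samples 1 and 2 and of control samples 1 and 2, out of 8 Illumina BeadArrays in the series. They were taken by their titles in the key deposited with the series, and the other 4 arrays hold total RNA (input) of the same samples. Salt animals had an injection of 325 uL of 2 M NaCl and control animals one of phosphate-buffered saline (PBS), and both groups then had no water until they were killed 2 h later. All were C57Bl/6J mice with no transgene or mutation named, 12 weeks old, kept on a 12 h light and dark cycle and taken at about circadian time 6. The antibody binds ribosomal protein S6 when its residues 244 and 247 carry phosphate, and it was applied to homogenate of the whole dissected hypothalamus, so the ribosomes of every cell type could be captured. No label tells if 1 mouse or several gave a sample, so p-values measure only the spread between these samples. That spread was pooled over the IP and input arrays, with the 2 arrays of a sample taken as independent. Levels are log2 intensities after background correction and quantile normalization, and a change is the mean log2 level of the salt IP arrays minus that of the control IP arrays, not divided by input.

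The small ribosomal subunit carries S6, whose phosphorylation by S6 kinases rises in neurons that fire strongly. Ribosomes that carry the phosphorylated form therefore come preferentially from active cells, and the mRNA bound to them gives a picture of which cells were active and what they were translating. In the hypothalamus a rise in blood osmolality is known to excite the magnocellular neurons of the supraoptic and paraventricular nuclei, which release vasopressin and oxytocin from the posterior pituitary. Excited neurons also switch on immediate early genes, a set that needs no new protein synthesis to be transcribed and that consists largely of transcription factors and of proteins that end the signal.

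The IP arrays detected between 13058 and 13808 of 25697 probes each (detection p under 0.01), and 14199 probes of 10182 genes detected on at least 2 of all 8 arrays were tested. The orexin gene Hcrt, the melanin-concentrating hormone gene Pmch and the vasopressin gene Avp, all of which mark hypothalamic neurons, were detected on all 4 IP arrays. The arrays did not sort by treatment as a whole. Over the tested probes the log2 difference between 2 arrays had a standard deviation of 0.32 for the pair of salt arrays and 0.35 for the pair of control arrays, and of 0.29 to 0.37 for the 4 pairs of a salt and a control array. Of the probes that differed by more than 2 log2 units, 7 to 12 in each such pair were higher in salt and 0 to 3 higher in control. Between the 2 control arrays, 5 probes were higher by that much in control 1 and 0 in control 2. Between the 2 salt arrays, 1 was higher in salt 1 and 0 in salt 2. Salt and control arrays as a whole thus differed by about as much as arrays of the same group did.

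After salt, 19 probes of 19 genes rose and 0 fell in the RNA of phosphorylated ribosomes (limma, adjusted p under 0.05). This is 0.134% of the 14199 probes on the higher side and 0% on the lower side, with 407 probes (2.87%) higher and 386 (2.72%) lower at an unadjusted p under 0.05. For the 11 that a control IP array detected, the rises ranged from 1.27 to 4.28 on the log2 scale, with a median of 1.93, and the other 8 have only a lower bound. For comparison, changes over all 10182 genes (brightest probe of each) had a standard deviation of 0.26 and lay between -0.39 and 0.38 from the 5th to the 95th percentile. By role the genes that rose were transcription factors (Fosb, Fos, Maff, Egr1, Egr4, Nr4a1, Nr4a3, Klf4 and Csrnp1), inhibitors of growth and signalling (Dusp1, Btg2, Cdkn1a and Rgs1), small GTPases (Gem and Rrad), the kinase gene Sgk1, the hormone gene Avp, the chemokine gene Cxcl1 and the transporter gene Mfsd2a. Of the 19, 9 were detected on both control IP arrays, 2 (Fos and Cxcl1) on 1 of them and 8 on neither, while all 19 were detected on both salt IP arrays. Those 8 were not detected on the control input arrays either, so they passed the filter on dim probes through salt arrays alone. The count of rises was 9 with only probes detected on all 4 IP arrays and 2 with no filter. It was 7 when the 4 IP arrays were fitted alone. More cells of a type among those captured and more RNA per cell cannot be told apart in these bulk samples.

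**Figure D1:**
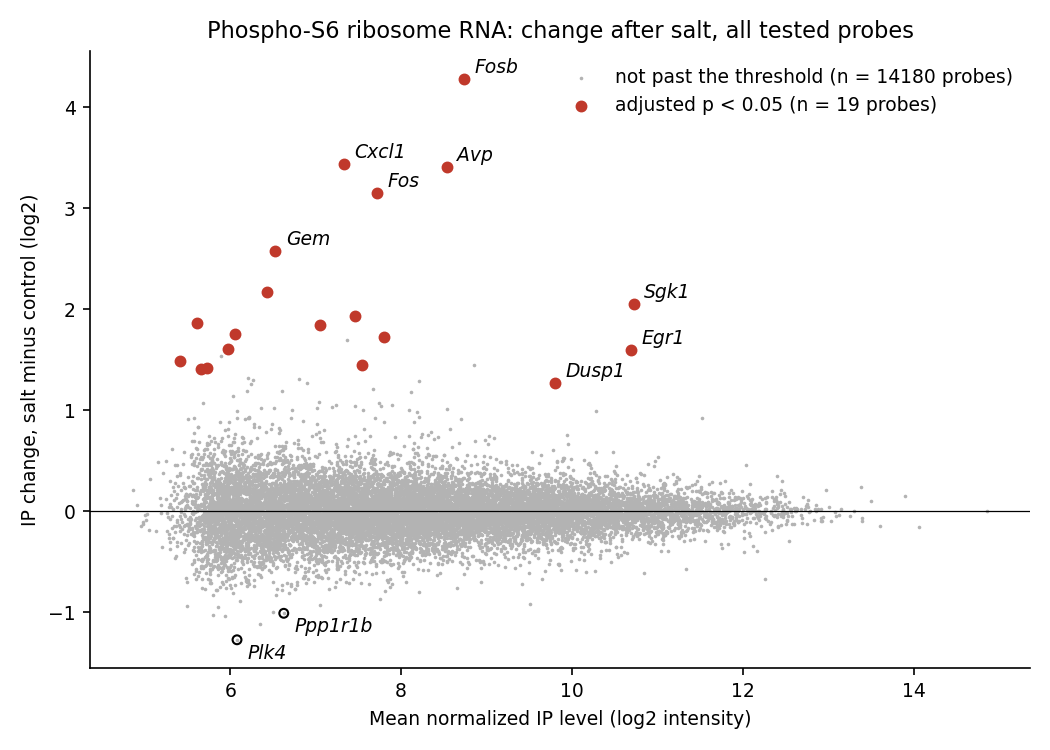
Change in phospho-S6 ribosome RNA (salt minus control, log2, vertical axis) against the mean normalized level over the 4 IP arrays (log2 intensity, horizontal axis), 1 point per tested probe. Probes undetected in a group are drawn at their fitted change. The 19 red probes that passed all lie above 1, and the largest fall, that of Plk4 at -1.27, did not pass.

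The count of rises also depended on having all 4 samples. It was 1 without salt sample 1 and 1 without salt sample 2 (Fosb each time), 5 without control sample 1 and 3 without control sample 2, and all 19 changes stayed above 0 in each of these 4 fits. With no background correction the rises were smaller, 3.43 in place of 4.28 for Fosb and 2.68 in place of 3.41 for Avp, so the fold changes given here depend on that step.

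**Figure D2:**
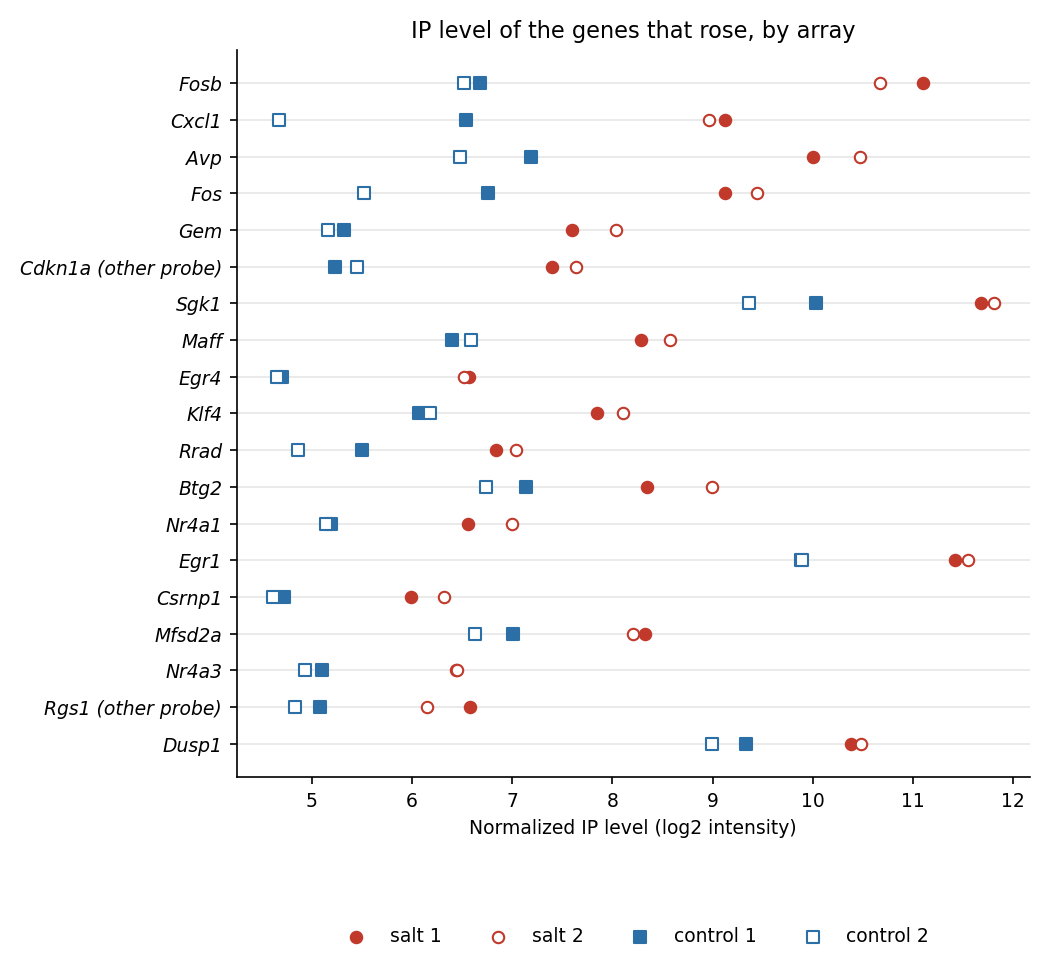
Normalized IP level (log2 intensity, horizontal axis) of the 19 genes that rose, 1 symbol per array, sorted by the size of the change. For every gene both salt arrays (red circles) lie above both control arrays (blue squares), and control arrays 1 and 2 are farthest apart for Cxcl1 and Fos.

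Many immediate early promoters are known to be driven through the cAMP response element (CRE), a site of the factor CREB whose full form reads TGACGTCA and whose core is TGACG. RefSeq promoters of the GRCm38.p6 build (250 bases before to 50 after a start site) were at hand for 15 of the 19 genes, 26 promoters in all. The bases just before the start site are printed for Fosb, the gene with the largest rise, and for Fos. They are also printed for Nr4a1, which like Nr4a3 holds 4 copies of the core. The last 3 are Maff, Dusp1 and Btg2, the genes with a full CRE. Capitals mark TGACG or TGACGTCA on the strand shown, or the same site read on the other strand (CGTCA).
Fosb: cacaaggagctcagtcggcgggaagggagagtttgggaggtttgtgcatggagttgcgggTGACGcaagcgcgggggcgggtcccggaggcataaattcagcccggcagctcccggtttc
Fos: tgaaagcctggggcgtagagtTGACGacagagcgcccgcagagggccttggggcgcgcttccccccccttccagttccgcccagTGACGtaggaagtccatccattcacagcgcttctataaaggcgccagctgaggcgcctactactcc
Nr4a1: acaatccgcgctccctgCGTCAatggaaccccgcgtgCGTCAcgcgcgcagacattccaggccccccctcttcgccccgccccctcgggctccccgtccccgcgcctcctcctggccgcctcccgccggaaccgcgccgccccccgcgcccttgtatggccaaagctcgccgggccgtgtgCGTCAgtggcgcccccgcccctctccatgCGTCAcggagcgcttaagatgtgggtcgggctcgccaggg
Maff: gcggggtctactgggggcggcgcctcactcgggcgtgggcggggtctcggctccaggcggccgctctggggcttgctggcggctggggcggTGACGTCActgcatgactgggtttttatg
Dusp1: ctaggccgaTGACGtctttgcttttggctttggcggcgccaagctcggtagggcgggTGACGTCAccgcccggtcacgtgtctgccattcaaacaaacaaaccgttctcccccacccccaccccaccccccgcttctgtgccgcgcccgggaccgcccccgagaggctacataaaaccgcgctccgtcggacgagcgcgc
Btg2: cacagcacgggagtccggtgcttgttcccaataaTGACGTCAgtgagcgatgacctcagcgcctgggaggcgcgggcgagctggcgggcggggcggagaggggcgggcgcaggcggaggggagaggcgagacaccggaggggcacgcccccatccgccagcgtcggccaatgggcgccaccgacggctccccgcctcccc
All 6 end at the base before the start site. They lie at chr7:19310046-19310165 (Fosb, minus strand), chr12:85473740-85473889 (Fos, plus), chr15:101266596-101266845 (Nr4a1, plus), chr15:79347400-79347519 (Maff, plus), chr17:26508473-26508672 (Dusp1, minus) and chr1:134079156-134079355 (Btg2, minus).

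The core TGACG was found on either strand in 16 of the 26 promoters of genes that rose (61.5%), against 23.6% of all 21263 promoters of protein-coding genes and 30.8% of the 10212 promoters of tested genes. Some genes gave several promoters. Counted by gene, the core was in 12 of 15 (80.0%), against 36.5% of 7803 tested genes. The full CRE, which contains the core on both strands, was found in 3 of 26 (11.5%) against 2.23% of all promoters and 3.07% of those of tested genes. A site of the Egr factors, GCGNGGGCG, was in 5 of 26 (19.2%) against 7.52% and 10.6% in the same order. The AP-1 site TGANTCA was in 2 (7.69%, in Avp and Csrnp1) against 6.99% and 4.87%. The CArG box, where serum response factor binds, was in 0 of 26 against 1.52% and 1.37%, in a window that does not reach farther than 250 bases upstream. The 1 match to the palindromic glucocorticoid response element was in a promoter of Sgk1, against 0.442% of all promoters and 0.343% of those of tested genes. These are matches of letters in a window and were not tested.

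AP-1 is a dimer of Fos, Jun and related leucine zipper proteins. Fosb reached 11.10 and 10.67 on the salt IP arrays against 6.68 and 6.52 on the control arrays, a rise of 4.28 ± 0.20 (SE) or 19.5-fold (adjusted p = 4.61e-05). Fos reached 9.13 and 9.44 in salt against 6.76 and 5.52 in control, where control 2 did not detect it, a rise of 3.15 ± 0.40 (adjusted p = 0.0225). For both genes the groups were far apart, and the control arrays of Fos were the more scattered. Maff, which encodes a small Maf protein that lacks an activation domain, was at 8.28 and 8.57 against 6.40 and 6.59 (1.93 ± 0.19, adjusted p = 0.0123). Jun, the dimer partner of the Fos proteins, was already at 9.66 and 9.61 in control and at 10.14 and 10.12 in salt, and its change of 0.49 ± 0.16 did not pass. Of 10 AP-1 genes listed 8 were on the array and 4 passed the filter on dim probes, 3 of which rose, against 17 of all 10182 genes (0.167%). Here and in the lists that follow, a gene dim in control could pass that filter through the salt arrays alone, so the counts describe the measured genes and not the whole list.

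In the group of Egr, Nr4a, Klf and other inducible factors, 6 of 13 measured genes rose, 0 fell and 11 lay above 0, against 5088 of 10182 above 0 over all genes. The median change was 0.71 with genes undetected in control set at their bound, against a median at 0 over all genes. Egr1, a zinc finger factor, was at 11.42 and 11.55 in salt against 9.89 on both control arrays (1.60 ± 0.17, adjusted p = 0.0127). Its control arrays were nearly equal, and the groups were far apart. Klf4, a Krüppel-like factor, was at 7.84 and 8.10 against 6.07 and 6.18 (1.85 ± 0.23, adjusted p = 0.0225). Egr4, the orphan nuclear receptors Nr4a1 and Nr4a3, and Csrnp1, a nuclear protein induced by many stimuli, were not detected on either control IP array. Their rises are therefore bounds, at least 1.63-fold for Egr4, 1.92-fold for Nr4a1, 1.52-fold for Nr4a3 and 1.25-fold for Csrnp1 (adjusted p between 0.0225 and 0.0328).

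Egr2, of the same family as Egr1, was at 8.27 and 8.16 in salt and 6.24 and 6.80 in control, and its change of 1.69 ± 0.27 just missed the threshold (adjusted p = 0.0811). Crem, whose inducible short form represses CRE-driven genes, differed by 0.99 ± 0.18 on its brightest probe and by 1.05 and 1.01 on the other probes kept, and did not pass (adjusted p = 0.164). Members of these families differed among themselves. Of the 13 measured, 10 had both salt arrays above both control arrays and 1 had both below, each pattern shown by 15.5% of all genes. Nr4a2 changed by 0.30 ± 0.16 with 8.28 and 8.02 in salt against 7.90 and 7.79 in control, Klf6 by -0.07 ± 0.17 and Ier5 by 0.03 ± 0.37. For Klf6 and Ier5 the salt and control arrays overlapped.

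Several genes outside the factor families were named for a small p among genes with arrays apart, and did not reach the threshold. Both salt arrays lay above both control arrays for 15.5% of all genes. Kcne4, an accessory subunit gene of potassium channels, was at 7.92 and 8.19 in salt against 6.87 and 7.23 in control (1.00 ± 0.18, adjusted p = 0.168). Fezf2, a zinc finger factor of forebrain neurons, differed by 1.31 ± 0.24, and a probe that the file calls LOC100047583 by 1.19 ± 0.22. Ccn1, which encodes a secreted matrix protein, and Ctla2a, a protease inhibitor gene, were detected in salt and on neither control IP array, differences of at least 1.77-fold and 1.16-fold. None of these passed.

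Genes that act at the synapse or are secreted after activity made up a further list. Of 14 measured, 1 rose, the factor gene Nr4a1 that is counted above, and the median change was 0.26 with all 14 above 0. Over all 10182 genes 17 rose, 5088 lay above 0 and the median was 0, a comparison that holds for the later lists too. Arc, whose protein removes glutamate receptors from synapses and which is a standard marker of neuronal activity, was at 9.67 and 9.01 in salt against 9.05 and 9.13 in control, so that the groups overlapped (0.25 ± 0.23). Nptx2, a secreted pentraxin that gathers glutamate receptors, was at 7.89 and 8.06 against 7.25 and 6.63 (1.04 ± 0.23) and did not pass. The neurotrophin gene Bdnf differed by 0.46 ± 0.22 and Homer1, a scaffold gene of the synapse, by 0.17 ± 0.17 on its brightest probe and by 0.15 and 0.72 on the others, none of them past the threshold.

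Genes that restrain signalling formed another group. Dusp1, which dephosphorylates MAP kinases, was at 10.38 and 10.48 in salt against 9.34 and 8.99 in control (1.27 ± 0.17, adjusted p = 0.0328). Btg2, an antiproliferative gene that speeds mRNA deadenylation, was at 8.34 and 8.996 against 7.14 and 6.74 (1.73 ± 0.24, adjusted p = 0.0328). Over the list 2 of 18 measured genes rose by their brightest probe, 17 lay above 0 and the median change was 0.45. Both salt arrays exceeded both control arrays for 14 of the 18, a pattern that 15.5% of all genes showed.

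Cdkn1a, the gene of the cell cycle inhibitor p21, gave 2 answers. The dimmer probe, which no control IP array detected, rose at least 3.21-fold (adjusted p = 0.0225), while the brighter one, at 7.23 and 7.71 against 6.07 and 6.23, changed by 1.32 ± 0.33 and did not pass. Errfi1, an inhibitor of the EGF receptor, differed by 1.00 ± 0.18 (adjusted p = 0.168) and Dusp14, another phosphatase gene, by 0.86 ± 0.16 (adjusted p = 0.168). Both missed the threshold with the arrays of the groups apart. Zfp36, which encodes a protein that destabilises AU-rich mRNAs, was undetected on 1 control array and differed by 1.27 ± 0.32 without passing.

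Gem and Rrad encode RGK proteins, small GTPases that inhibit voltage-gated calcium channels. Gem was at 7.60 and 8.03 on the salt arrays and was not detected in control, a rise of at least 3.95-fold (adjusted p = 0.0031). Rrad was at 6.84 and 7.04 and likewise undetected in control, a rise of at least 2.15-fold (adjusted p = 0.0225). Of the other members of the family, Rem2 was below detection on all 4 IP arrays, with no fold given for that reason, and Rem1 was not tested.

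The hormone genes of the magnocellular and neighbouring neuroendocrine neurons are shown by array in the plot of hormone and neuropeptide genes. Avp, the vasopressin precursor gene, was at 10.01 and 10.47 in salt against 7.19 and 6.48 in control, a rise of 3.41 ± 0.36 or 10.6-fold (adjusted p = 0.0127). It alone passed of the 18 measured genes of the list, of which 15 lay above 0, with a median of 0.20 when genes undetected in control are set at their bound. Oxt, the oxytocin precursor gene, was at 8.01 and 8.56 against 7.43 and 7.04 (1.05 ± 0.28, adjusted p = 0.495). Crh, the gene of corticotropin-releasing hormone, was detected on both salt arrays (5.99 and 6.45) and on neither control array, a difference of at least 1.30-fold (adjusted p = 0.39). For both genes the arrays of the groups did not overlap, and neither passed.

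A further 4 genes of these cells had salt arrays above control arrays without passing. Over the list, 7 of 18 measured genes had both salt arrays above both control arrays and 1 had both below. Each pattern was shown by 15.5% of all genes. Creb3l1, a transcription factor known from rat to act on the Avp promoter, was undetected in control and differed by at least 1.07-fold. Pcsk1, a protease that cuts prohormones, differed by 0.93 ± 0.27, the galanin gene Gal by 0.76 ± 0.24 and the dynorphin precursor gene Pdyn by 0.59 ± 0.21 (10.58 and 10.96 against 9.99 and 10.37). None of the general secretory genes of the list passed. The granin genes Scg2 and Chgb changed by 0.19 ± 0.24 and 0.09 ± 0.28, Scg3 and Vgf by 0.21 ± 0.22 and 0.28 ± 0.27, Chga by -0.35 ± 0.19, with both salt arrays below both control arrays, and the protease gene Pcsk2 by 0.03 ± 0.15. Sim1, a factor that specifies paraventricular and supraoptic neurons, changed by 0.31 ± 0.29, with overlapping arrays.

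**Figure D3:**
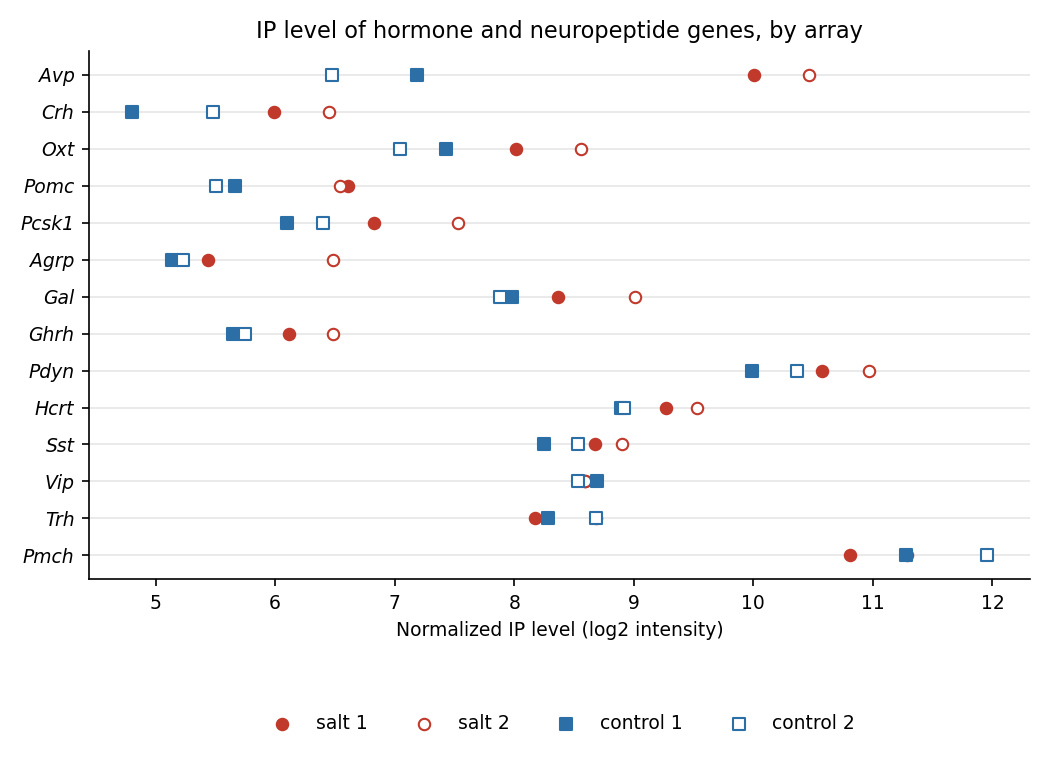
Normalized IP level (log2 intensity, horizontal axis) of 14 hormone, neuropeptide and prohormone protease genes, 1 symbol per array, sorted by the size of the change. The groups are widest apart for Avp, which alone passed, while for Vip and Trh they overlap and for Pmch salt array 2 and control array 1 nearly coincide (11.29 and 11.28).

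Among 14 measured neuropeptide genes of other hypothalamic neurons 0 rose and 0 fell, 12 lay above 0, and the median over the 13 detected in either group was 0.22 with genes undetected in control at their bound. Pomc, the precursor gene of melanocortins and corticotropin, was at 6.61 and 6.55 in salt and undetected in control, a difference of at least 1.67-fold that did not pass (adjusted p = 0.799). Of 8 genes listed as pituitary markers, Pomc among them, the other 7, growth hormone and prolactin included, were detected on none of the IP arrays. Hcrt, the gene of the arousal peptide orexin, was at 9.27 and 9.53 against 8.89 and 8.92 (0.49 ± 0.21). Agrp, a feeding peptide gene, was detected on salt array 2 only (at least 1.09-fold), and Ghrh, which drives growth hormone release, on both salt arrays and no control array (at least 1.38-fold).

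Sst, the somatostatin gene, changed by 0.39 ± 0.20, and Npy, a feeding peptide gene, was not detected on either control IP array. Neither passed.

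Not every peptide gene was higher. Pmch, a neighbour of Hcrt in the lateral hypothalamus, was at 10.81 and 11.29 in salt against 11.28 and 11.95 in control (-0.57 ± 0.25, adjusted p = 0.89), with the groups barely overlapping. Vip, a peptide gene of the suprachiasmatic nucleus, changed by -0.02 ± 0.16 and Trh, the thyrotropin-releasing hormone gene, by -0.06 ± 0.22. Neither showed a difference beyond the spread of its arrays.

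Sgk1 encodes a kinase that promotes sodium transport and responds to corticosteroids and to cell shrinkage. It was at 11.68 and 11.81 in salt against 10.03 and 9.36 in control, a rise of 2.05 ± 0.24 or 4.14-fold (adjusted p = 0.0225). Among 13 measured glucocorticoid-responsive genes 2 rose (Sgk1 and Dusp1), 12 lay above 0, and the median change was 0.42 with the 1 gene undetected in a group at its bound. Ddit4, an inhibitor of mTOR signalling, was at 11.88 and 12.10 against 11.25 and 10.87 (0.93 ± 0.21) and did not pass. The classical glucocorticoid targets Fkbp5, an immunophilin gene, and Tsc22d3, which encodes the leucine zipper protein GILZ, changed by 0.27 ± 0.19 and 0.12 ± 0.18. Neither passed.

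Of 12 measured osmotic response genes, Sgk1 was the 1 that rose, against 0.167% of all genes, and the median change was 0.14. Slc38a2, an amino acid transporter, differed by 0.61 ± 0.19 (1.29 and 0.37 on its other probes) and Slc5a3, which imports the osmolyte inositol, by 0.57 ± 0.22, both with the groups apart and neither past the threshold. Nfat5, the factor that drives osmolyte genes, changed by 0.18 ± 0.26, with overlapping arrays. Its target Slc6a6, the taurine transporter gene, changed by -0.14 ± 0.16.

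The clock gene Per1, whose promoter also answers to CREB, was at 8.56 and 8.002 in salt against 7.20 and 6.94 in control (1.21 ± 0.23, adjusted p = 0.181), and its other probe differed by 1.09. The rest of the clock list did not follow, Per2 at 0.09 ± 0.19, Clock at 0.06 ± 0.15 and Nr1d1 at -0.42 ± 0.22 among them. The list of 13 had a median of 0.06, and 0 of its genes rose or fell.

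Cxcl1 encodes a chemokine that attracts neutrophils. It was at 9.12 and 8.97 on the salt arrays against 6.54 on control array 1 and 4.67, undetected, on control array 2, a rise of 3.44 ± 0.47 (adjusted p = 0.0328). The control arrays differed from each other by more than for any other gene that rose, and the rise was 2.50 without control sample 2 and has only a lower bound without control sample 1, since control array 2 did not detect it. Rgs1, a gene of G protein signalling best known from leukocytes, rose at least 1.44-fold on 1 probe (adjusted p = 0.0381), while its brighter probe changed by 0.46 ± 0.25 and did not pass. Of 21 chemokine and inflammatory genes listed, 20 were on the array and 4 passed the filter. The endothelial adhesion genes Vcam1 (0.33 ± 0.30) and Icam1 (0.17 ± 0.20) did not pass.

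Mfsd2a, the transporter that carries the omega-3 lipid DHA across brain endothelium, was at 8.33 and 8.20 in salt against 7.002 and 6.63 in control (1.45 ± 0.21, adjusted p = 0.0393). It was listed as an endothelial marker, and 0 of the other 5 measured genes of that list passed. Acta2, an actin gene of mural cells, was at 8.82 and 9.08 in salt against 8.87 and 8.96 in control. Cldn5, a tight junction gene, was at 5.95 and 7.48 in salt against 7.08 and 6.48 in control (-0.06 ± 0.43). Rgs5, a pericyte gene, was at 7.18 and 8.73 against 7.99 and 7.49 (0.21 ± 0.42). Cldn5 and Rgs5 were lowest in salt 1 and highest in salt 2, and 9 of 16 endothelial and mural genes, Pecam1, Cdh5 and Kdr among them, were detected on none of the IP arrays.

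Astrocyte markers and the ependymal and endothelial lists were uneven across arrays in the same way. Summed over 11 measured astrocyte genes, background-corrected intensity was 6893 in salt 1 and 9314 in salt 2, against 9884 in control 1 and 5843 in control 2. Over 6 ependymal and tanycyte genes it was 318 and 483 against 377 and 244. Over 6 endothelial and mural genes, Mfsd2a itself among them, it was 978 and 1545 against 1049 and 856. Salt 2 and control 1 were thus the richer array of their group in all 3 lists, across rather than along the treatment. The part of this unevenness in the rise of Mfsd2a was not tested. Neurons varied less, with 17196 and 19142 against 19141 and 17834 over 12 genes, and so did oligodendrocytes, with 24035 and 25479 against 23574 and 22078 over 13. Gfap, the intermediate filament gene of astrocytes, changed by 0.49 ± 0.22, the myelin gene Mbp by 0.12 ± 0.18, the synaptic gene Snap25 by 0.15 ± 0.22 and the haemoglobin gene Hba-a1 by -0.35 ± 0.33. Apart from Mfsd2a, 0 genes of the 12 cell type lists passed in either direction.

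Among 7 measured microglia genes 0 passed, and 2 had both salt arrays below both control arrays, a pattern that 15.5% of all genes showed. P2ry12, a purine receptor of resting microglia, was detected on both control arrays (6.37 and 6.46) and on neither salt array, a difference of at least 1.45-fold (adjusted p = 0.3). Aif1, which encodes the microglial protein IBA1, was at 7.39 and 7.59 in salt against 8.24 on both control arrays (-0.75 ± 0.20, adjusted p = 0.501), and its 2 other probes were lower as well (-0.45 and -0.32). The remaining 5 measured genes, Tyrobp (0.13 ± 0.20) and Cx3cr1 (-0.08 ± 0.22) among them, did not share this, and Csf1r, Itgam, C1qa, C1qc and Trem2 were detected on none of the IP arrays. Summed over the 7 measured genes intensity was 1135 and 1014 in salt against 1253 and 1192 in control.

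On the lower side 5 genes lay below -1 (0.0491% of 10182), against 39 above 1 (0.383%), and 0 of the 5 (Plk4, Mip, Wdr5b, Dsc2 and Ppp1r1b) passed. Plk4, the kinase of centriole duplication, was at 6.82 and 6.61 in control and undetected in salt, at least 1.79-fold lower (adjusted p = 0.0659). Dsc2, a desmosomal cadherin gene, was at 6.18 and 6.45 in control and undetected in salt, at least 1.35-fold lower (adjusted p = 0.0672). Ppp1r1b, which encodes the striatal phosphoprotein DARPP-32, was at 6.18 and 6.06 in salt against 7.23 and 7.04 in control (-1.01 ± 0.22, adjusted p = 0.37), and its other probe changed by -0.70. Genes of other kinds stood on this side too. Trim59 (-0.92 ± 0.19), Carm1 (-0.71 ± 0.15), Kdm1b (-0.70 ± 0.16) and Zfp41 (-0.86 ± 0.19) were lower on both salt arrays, as was Tdgf1 by at least 1.30-fold, and Mip, the lens aquaporin gene, differed by -1.12 ± 0.18, none of them past the threshold. Of the other striatal genes, Drd1 (-0.09 ± 0.24), Drd2 (-0.04 ± 0.21) and Pde10a (-0.07 ± 0.20) had overlapping groups. Over the 9 measured markers of the striatum and neighbouring regions, Ppp1r1b among them, 3 lay above 0 and 6 below. Their changes ran from -1.01 to 0.35. Plk4 and Dsc2 passed where the arrays were scaled to a common median, where IP and input were normalized apart, and where 1 value per gene was tested.

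Genes of the translation machinery itself were level. Rps6, the gene of the captured protein, was at 9.87 and 10.03 in salt against 9.83 and 10.00 in control (0.03 ± 0.18). The median change was 0.03 over 53 ribosomal protein genes, -0.01 over 21 translation factor genes, -0.03 over 17 genes of S6 and mTOR signalling and 0.00 over 65 respiratory chain genes. In each of these lists 0 genes passed in either direction. Rps25, a ribosomal protein gene, was at 9.92 and 9.81 against 9.73 and 9.57 (0.21 ± 0.15), and the transcription factor gene Prox1 differed by 0.09 ± 0.15. Heat shock genes had a median of 0.13 with 12 of 13 above 0 and 0 passing, the inducible Hspa1a at 0.35 ± 0.29 and the endoplasmic reticulum chaperone gene Hspa5 at 0.34 ± 0.16.

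**Figure D4:**
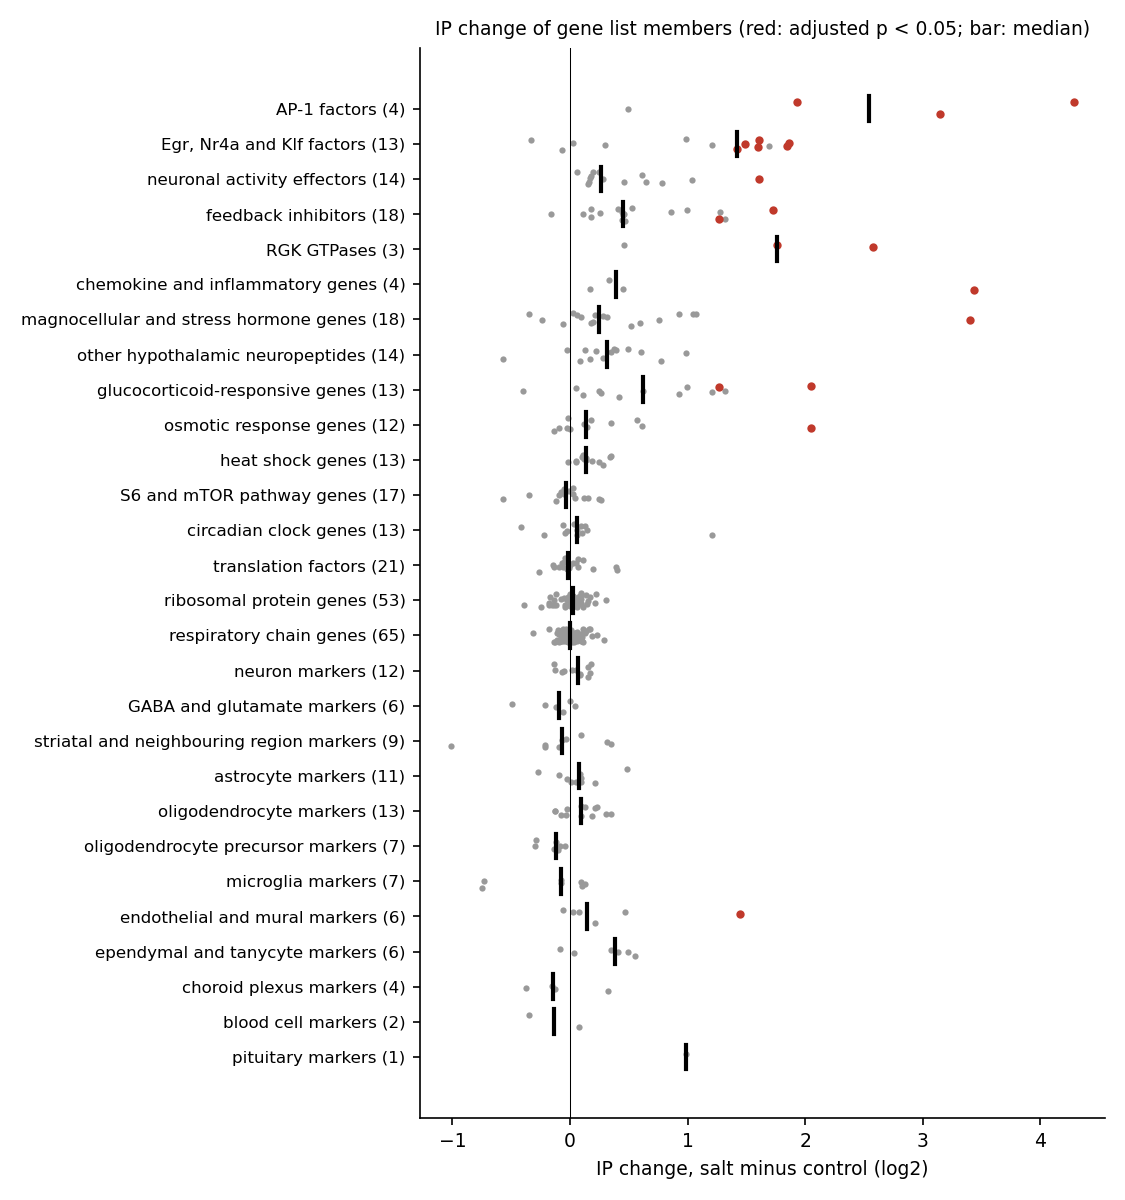
Change in phospho-S6 ribosome RNA (salt minus control, log2, horizontal axis) of the measured members of each gene list (number in brackets), 1 point per gene with vertical jitter, red where adjusted p is under 0.05 and with a black bar at the median. Genes undetected in a group are drawn at their fitted change, so bars of dim lists are not bounds. Red points sit in the factor, effector, feedback, RGK, chemokine, magnocellular, glucocorticoid, osmotic and endothelial lists, and the translation, respiratory chain and most cell type lists centre near 0.

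The input arrays show how much of each change was also present in total RNA. Of the 19 probes, 5 (Nr4a3, Rrad, Csrnp1, Egr4 and Rgs1) were undetected on all input arrays, and 4 (Gem, Cdkn1a, Cxcl1 and Nr4a1) were detected there in salt alone. For the 10 genes detected in all 4 groups of arrays, the input changed by between 0.15 and 2.97, with a median of 1.05, against 1.89 in the IP. The genes were chosen for their rise in the IP, so a smaller change in the input is what the choice favours. Only Fosb and Gem passed in the input. Fosb changed by 2.97 ± 0.20 there, Gem by at least 2.78-fold and Avp by 0.15 ± 0.36.

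The test of the difference, the IP change minus the input change of each sample, gave 0 of 14199 probes (0% called) with limma and 388 at an unadjusted p under 0.05. Among those 10 genes the gap was widest for Avp, 3.26 (adjusted p = 0.118), and narrowest for Sgk1, 0.39. Some peptide genes whose IP change had not passed were detected in all 4 groups too. Oxt changed by -0.22 ± 0.28 in the input, Gal by 0.01 ± 0.24 and Pcsk1 by 0.14 ± 0.27. None of these differences passed, so with these settings no gene is shown to change in phosphorylated ribosomes beyond total RNA. The count of 0 did not hold under every alternative, as given at the end.

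**Figure D5:**
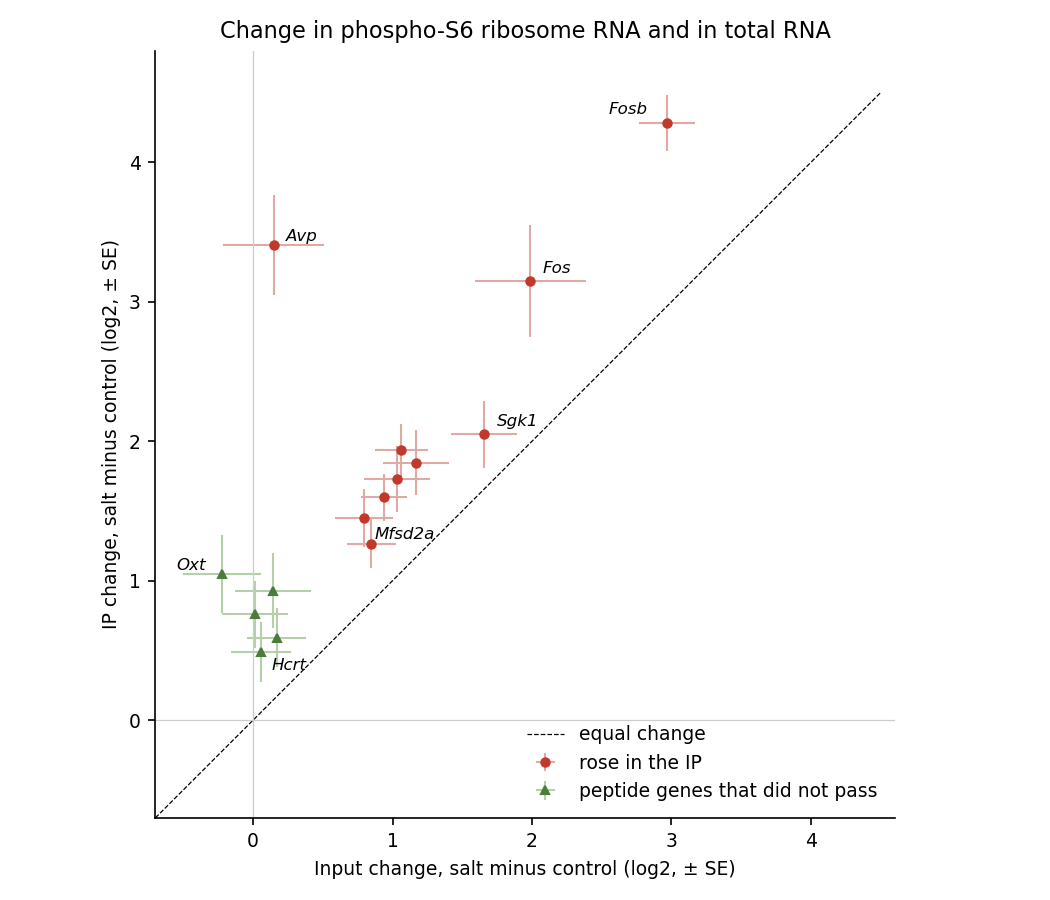
Change in phospho-S6 ribosome RNA (vertical axis) against change in total RNA (horizontal axis), both salt minus control on the log2 scale with standard errors, for the 10 genes that rose in the IP (circles) and 5 peptide and protease genes that did not pass (triangles), all detected in each of the 4 groups of arrays. The circles lie above the dashed line of equal change, and Avp, at 0.15 on the horizontal axis, is farthest from it.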

How the data were processed

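RNA was measured on 8 single-colour Illumina BeadArrays, an IP and an input array from each of 2 salt and 2 control samples. Per the labels and the submitters' processing notes, the authors exported the arrays with GenomeStudio, version not given in the sources used here. The deposited table holds an intensity per probe, not normalized, and a detection p-value, as the authors' software wrote them. Arrays were matched to samples by their titles in the key.

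Intensities were background-corrected with the detection p-values (limma 3.58.1 in R 4.3.3, nec with an offset of 16), quantile-normalized over 8 arrays and put on the log2 scale. A probe was kept if 2 or more of 8 arrays had it at a detection p below 0.01. A linear model with 4 group means (4 residual degrees of freedom) and empirical Bayes gave two-sided p-values, adjusted by Benjamini-Hochberg over all 14199 probes, threshold 0.05. IP minus input values per sample were fitted likewise. The code was tested on simulated data with known changes. For probes below detection throughout a group the fold is a bound, the detected group's mean over the mean of, per array, the higher of the lowest detected signal and the probe's own.

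A gene is given by its brightest probe unless said otherwise. Names follow the RefSeq table of GRCm38.p6 for 20736 probes by current and 3841 by older symbol, and for 1120 the deposited name stands. The rule for named genes took every gene past the threshold, up to 10 others on each side with the smallest p and arrays not overlapping, up to 4 members of each list by smallest p, and a set of index genes. Bdnf, Chga, Chgb, Clock, Cx3cr1, Ddit4, Drd1, Drd2, Fkbp5, Homer1, Ier5, Klf6, Nfat5, Nr4a2, Pcsk2, Pde10a, Per2, Scg2, Sim1, Slc6a6, Tsc22d3, Vgf, Scg3, Creb3l1, Acta2, Wdr5b and Zfp36 fall outside it and were chosen after their values were seen. The arrays compared, the lists and the rule were chosen with earlier results of these data known. Alternatives covered background correction, normalization, filter, probe choice, variance model, the replicate block and each sample left out.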

Additional observations from a re-analysis of the deposited data

Results flagged for a closer look

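For 2 named genes both salt arrays lay above both control arrays in the phospho-S6 RNA and below both in the input. In the phospho-S6 RNA alone, 15.5% of all genes had both salt arrays above both control arrays. The share of all genes with the opposite patterns together was not counted. Rps25 changed by 0.21 in the IP and -0.09 in the input, and Prox1 by 0.0947 and -0.21. In the limma test of the difference between the IP and the input change neither passed.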

How the results depend on the processing

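The 19 rises stayed above 0 under every alternative in which they were tested, and Fosb passed in all 16. Their sizes moved with the background correction: without it the median fitted rise was 1.15 in place of 1.85, with 1.37 in place of 2.58 for Gem and 3.43 in place of 4.28 for Fosb. The count that rose stayed between 17 and 20 with no background correction, normexp correction, median scaling, separate normalization of IP and input, 1 value per gene, detection on 2 IP arrays, or a trended robust fit. It was 7 when the 4 IP arrays were fitted alone, 2 with no filter on dim probes (Fosb and Gem) and 9 with only probes detected on all 4 IP arrays. Leaving out 1 sample gave 1 to 5 rises, with the lone sample assumed to vary like the other groups. The count that fell was 2 (Plk4 and Dsc2) with median scaling, with separate normalization, with the brightest probe per gene and with the mean of a gene's probes. The difference between IP and input change gave 1 probe with no background correction, with normexp, with probes detected on all 4 IP arrays and with the block, and 0 to 16 when 1 sample was left out (16 without salt sample 1).

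With the replicate number as a block 5 probes rose (Fosb, Gem, Maff, Avp and Cxcl1). Samples of the same number correlated in their deviations from the group means by 0.14 in the IP and -0.23 in the input. With 2 pairs and no label that ties the numbers to a shared animal, batch or day, they were not taken as pairs.

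Changes that had not passed turned sign for Cldn5 with no background correction (0.00772), and for Per2 (-0.00820) and Vip (0.0986) with the mean of their probes. Leaving out 1 sample turned the sign for 28 such genes, with these log2 ranges: Acta2 -0.0992 to 0.16, Arc -0.0851 to 0.58, Chgb -0.21 to 0.39, Cldn5 -0.83 to 0.70, Clock -0.0123 to 0.14, Cx3cr1 -0.39 to 0.24, Drd1 -0.41 to 0.23, Drd2 -0.28 to 0.20, Hba-a1 -0.72 to 0.0229, Homer1 -0.00123 to 0.33, Ier5 -0.37 to 0.43, Klf6 -0.22 to 0.0818, Mbp -0.0676 to 0.32, Nfat5 -0.26 to 0.62, Pcsk2 -0.0784 to 0.14, Pde10a -0.26 to 0.13, Per2 -0.0144 to 0.20, Rgs5 -0.57 to 0.99, Rps6 -0.0564 to 0.12, Scg2 -0.14 to 0.52, Scg3 -0.00265 to 0.42, Sim1 -0.16 to 0.79, Snap25 -0.11 to 0.41, Trh -0.31 to 0.20, Tsc22d3 -0.021 to 0.25, Tyrobp -0.12 to 0.39, Vcam1 -0.0569 to 0.72, Vip -0.10 to 0.0553. The cause was not tested. A number of 2 samples a group limits the precision throughout, and the smallest exact permutation p for a single gene is 0.333. Genes not detected on a group's arrays have only a bound there.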
